A study of Vitis vinifera with 165 samples.

Results

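The earliest berries of the 2012 season were compared between severe and moderate cluster thinning, 28 days before veraison. The members were the 3 libraries labelled 75% thinning and the 3 labelled 50% thinning on day -28 of 2012, chosen by season, time point and treatment in the labels. They were 6 of the 165 libraries of the series. All came from vines of Vitis vinifera cv Pinot noir, clone FPS 23 grafted on Freedom rootstock, grown near Modesto. At 75% thinning 1 cluster was kept on every other shoot, and at 50% thinning 1 cluster was kept on each shoot, so both groups were thinned. Unthinned control vines, also named in the labels, were not analysed here. Each sample pooled 60 berries from 6 clusters, taken from blocks of 8 vines in 3 rows per treatment. Seeds were removed during grinding, and the tissue is labelled pericarp, the skin and flesh of the berry. By its title, the study asked what cluster thinning does to berry ripening.

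Before veraison, the onset of ripening, grape berries are hard, green and acid. In this phase the pericarp first grows by cell division and expansion, photosynthesises, and lays down tannins and organic acids, and growth then slows before softening, sugar import and colouring begin. Removing clusters leaves fewer fruits to share the carbon that the leaves of a vine export. Transcript levels in the green berry change quickly with its age, so a comparison on a single date compares both treatment and whatever developmental stage each set of vines had reached.

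Expression values were RPKM, in which reads are divided by the length of the gene model and by the mapped reads of the library, and was tested on the log2(RPKM + 1) scale. Differences on that scale understate the change of gene models with low values. A gene model was called when its adjusted p in limma (Benjamini-Hochberg over the 20460 gene models tested) was under 0.05. Gene models are given by the identifiers of the deposited table, which pairs them with no names. None of them matched the reference gene table, so no function is given for any gene model. For the same reason neither the pericarp and seed markers nor the photosynthesis, cell wall, flavonoid, hormone and other pathway lists could be checked, and the tissue label is taken as given. The digits after VIT_ give the chromosome.

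Within each treatment the libraries had similar counts of expressed gene models and correlated closely, but relative depth varied, most at 50% thinning. Between 17583 and 17668 gene models reached an RPKM of 1 at 75% thinning, against 17384 to 17425 at 50% thinning. Absolute depth is unknown, but the steps between low RPKM values gave relative depths of 0.774 to 0.918 at 75% thinning and of 0.529 to 1 at 50% thinning, with replicate 1 of 50% thinning set to 1. Libraries of a treatment correlated with a Pearson r of 0.988 to 0.992 across gene models at 75% thinning and of 0.991 to 0.992 at 50% thinning. Between the treatments r was 0.970 to 0.975.

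The libraries did not sort by date and treatment when set beside those of the next date, day -18 of 2012, and the results that follow rest on these libraries. The 3 libraries labelled 50% thinning on day -28 correlated at 0.975 to 0.988 with the 3 libraries labelled 75% thinning on day -18, and at 0.985 to 0.988 with replicate 3 of 50% thinning on day -18. Each had the 75% thinning group of day -18 as its nearest other group among the series, with r of 0.988 to 0.990 to the group mean. Replicates 1 and 2 of 50% thinning on day -18 stood apart from all of these, with r of 0.924 to 0.957 to the 50% thinning libraries of day -28. Replicate 2 of that group correlated at 0.972 to 0.979 with the 75% thinning libraries of day -28, and replicate 1 at 0.944 to 0.951. In expression, therefore, the libraries labelled 50% thinning on day -28 sat with 4 of the 6 libraries taken 10 days later. By group means, those labelled 75% thinning on day -28 were nearest to the group that held the other 2. Library by library this did not hold for replicate 1 of that group. Its r of 0.944 to 0.951 lay below the 0.970 to 0.975 between the treatments on day -28. Sugar in the labels followed the dates instead: on day -18 it was 1.03, 1.2 and 1.21 g per 100 ml at 75% thinning and 0.93, 1.04 and 1.29 g per 100 ml at 50% thinning. All 6 of these values lay above those of day -28, which were 0.48 to 0.59 g per 100 ml, and replicates 1 and 2 of 50% thinning, at 0.93 and 1.04, were among the lower ones of day -18. Sugar was given with the sample labels and was not measured from the libraries. Thinning and the stage of the berries cannot be told apart on this date, and whether each library carries its own sample's label was not tested.

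**Figure D1:**
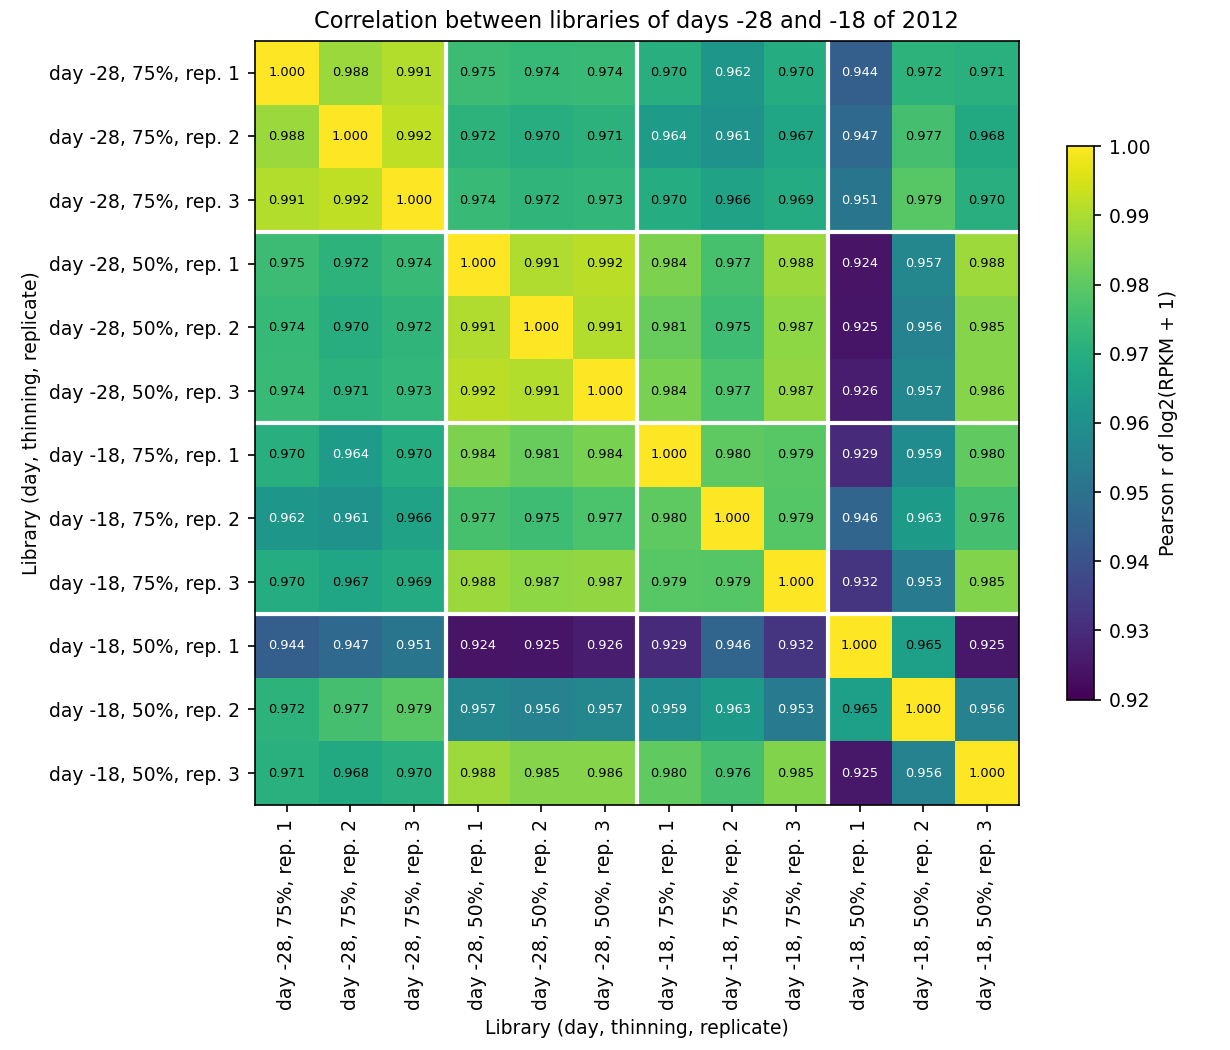
Pearson correlation of log2(RPKM + 1) across 20460 gene models between the 12 libraries of days -28 and -18 of 2012, with white lines between groups. The 3 libraries of 50% thinning on day -28 correlate at 0.975 to 0.988 with 75% thinning on day -18, while the 75% and 50% thinning libraries of day -28 correlate at 0.970 to 0.975 with each other.

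Sugar did not separate the treatments. The labels give 0.59, 0.51 and 0.48 g per 100 ml at 75% thinning and 0.56, 0.57 and 0.57 g per 100 ml at 50% thinning. The means were 0.527 ± 0.0569 and 0.567 ± 0.00577 g per 100 ml (SD, n = 3 each), a difference of -0.04 (exact permutation test, two-sided, p = 0.4, where 0.1 is the smallest p that 3 against 3 allows). The 75% thinning samples spread more widely and lay on both sides of the 50% thinning samples.

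Expression differed widely. Of the gene models tested, 2574 (12.6%) were called higher at 75% thinning and 1717 (8.39%) lower, together 4291 (21%). Many of these differences were small: 1079 of the 2574 higher and 840 of the 1717 lower ones were under 0.5 on the log2 scale. The median difference was 0.56 among the higher and -0.51 among the lower ones. The median over all gene models tested was 0.02. In bulk berries, fewer cells of a type and less RNA per cell cannot be told apart. After quantile normalization the split turned round, to 2529 higher and 2889 lower, so the excess of higher calls depends on the scaling of the libraries. The values of the 3 libraries of one treatment all lay beyond those of the other in 4206 of the 4291 called gene models, against 52.7% of all gene models tested. The calls were made on the same values, so this count adds no support.

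A difference of at least 1 on the log2 scale was reached by 709 called gene models (3.47%), of which 496 (2.42%) were higher and 213 (1.04%) lower at 75% thinning. Between 2 and 3 on that scale there were 61 higher and 14 lower ones, and above 3 there were 20 higher and 8 lower. The groups did not overlap in 485 of the 496 and in 211 of the 213, beside 52.7% of all gene models tested. Both sets were chosen for these differences, so the lack of overlap adds no support. In 14 gene models called higher the 3 libraries of 50% thinning were all listed at 0, and in 4 called lower the 3 libraries of 75% thinning were. Such gene models pass the filter only through other libraries, and the share at 0 among all gene models tested was not counted. Nothing is read from these counts. Coefficients of variation within a treatment were taken over gene models with a mean of at least 10 RPKM in that treatment. The 2 treatments therefore cover different members of each set. Among those of the 496, the medians were 9.70% at 75% thinning and 6.97% at 50% thinning, and among those of the 213 they were 9.37% and 7.55%. Over all gene models tested with a mean of at least 10 RPKM in both treatments they were 5.15% and 4.10%.

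Calls were made at all levels of expression. Among the gene models with a mean between 1 and 10 RPKM over the series, 12.4% were called higher and 5.68% lower at 75% thinning, and between 10 and 100 RPKM the shares were 10.4% and 11.1%. In the 1302 gene models between 100 and 1000 RPKM, 11.9% were higher and 16.5% lower, and among the 78 above 1000 RPKM 17 were higher and 20 lower. Of the 3125 with a mean under 1 RPKM, 587 were called higher and 124 lower, but the filter admits a gene model through the 3 libraries of a single group, so gene models this low could pass only where some libraries were high, and nothing is read from their split. The added-up RPKM of all called higher gene models made up 17.7%, 18.5% and 18.1% of the library total at 75% thinning, against 10.3%, 10.5% and 10.3% at 50% thinning. Those called lower held 18.4%, 18.4% and 19.4% at 75% thinning and 30.7%, 30.5% and 30.5% at 50% thinning. About as much as all the others of that set was held by a single gene model, VIT_19s0014g02740, and without it the shares were 9.53%, 8.94% and 9.18% at 75% thinning and 14.1%, 13.7% and 14.0% at 50% thinning. These shares describe gene models chosen for their direction.

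**Figure D2:**
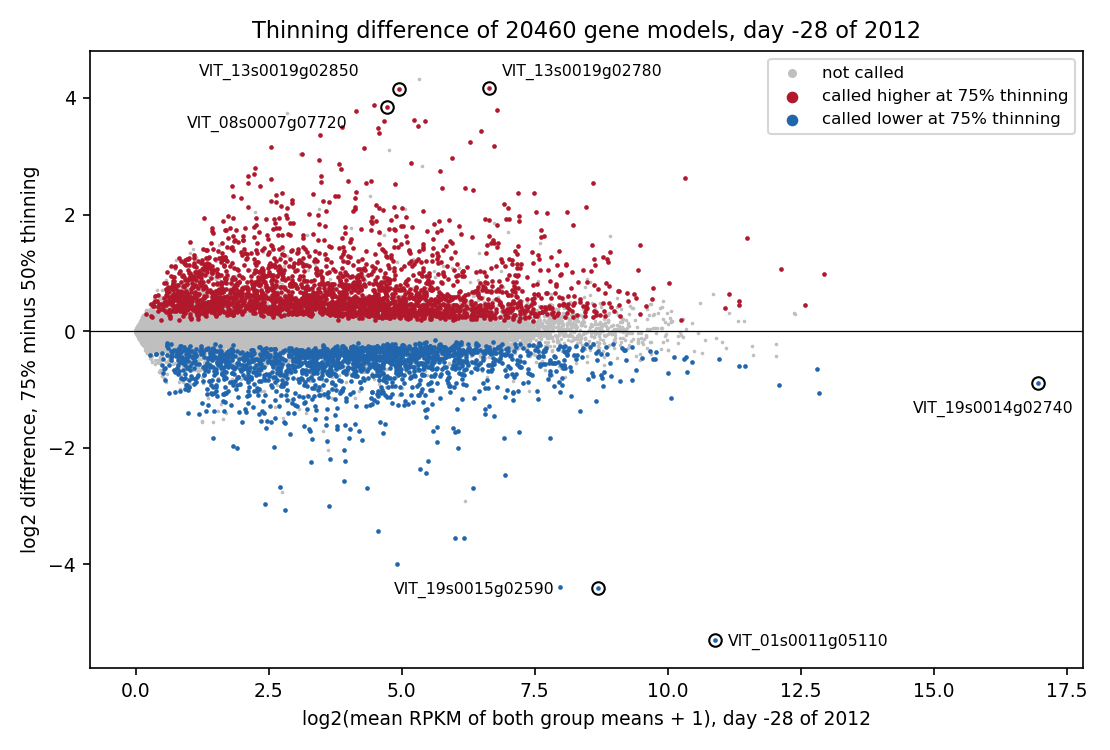
Difference in log2(RPKM + 1) between 75% and 50% thinning on day -28 of 2012 (vertical axis) against the log2 of the mean RPKM of both groups plus 1 (horizontal axis), 1 point per gene model tested. Red points are the 2574 gene models called higher at 75% thinning, blue points the 1717 called lower, and circles mark the gene models named in the text.

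Among called gene models with a mean of at least 10 RPKM in a treatment and no overlap, VIT_13s0019g02780 on chromosome 13 had the largest difference upward. It had 236, 144 and 187 RPKM at 75% thinning, against 9.60, 8.40 and 10.2 RPKM at 50% thinning. Its mean was 20.1-fold higher at 75% thinning, and the difference was 4.17 ± 0.53 on the log2 scale (SE, limma, adjusted p = 1.82e-10). Nearly all other libraries of the series were far lower: the median of the other 159 was 5.76 RPKM, and 1 of them, replicate 1 of 50% thinning on day -18 with 652 RPKM, exceeded the lowest 75% thinning library of day -28.

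The second was VIT_13s0019g02850, on the same scaffold. It had 76.5, 40.5 and 55.9 RPKM at 75% thinning, against 2.17, 1.92 and 2.46 RPKM at 50% thinning, a difference of 4.16 ± 0.58 on the log2 scale (SE, limma, adjusted p = 4.51e-09). In both gene models the 75% thinning replicates kept the same order, with replicate 1 highest and replicate 2 lowest, and the groups were far apart. Replicate 1 was the highest 75% thinning library in 11 of the 12 gene models with the largest upward differences under the same limits, while over all 496 it was the highest in 166 and the lowest in 245.

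VIT_01s0011g05110 on chromosome 1 had the largest difference downward. It had 87.8, 104 and 88.9 RPKM at 75% thinning, against 4123, 3328 and 3667 RPKM at 50% thinning. The mean of 93.5 ± 8.89 RPKM at 75% thinning was 39.6-fold below that of 3706 ± 399 RPKM at 50% thinning (SD, n = 3 each), and the difference was -5.29 ± 0.38 on the log2 scale (SE, limma, adjusted p = 1.06e-22). Its median over the other 159 libraries was 10066 RPKM, and 1 of those 159 lay at or below the highest 75% thinning library of day -28. At 75% thinning its mean was 4175 RPKM on day -18, 14016 on day -9 and 23239 on day 0.

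The second was VIT_19s0015g02590 on chromosome 19, with 39.3, 31.6 and 35.9 RPKM at 75% thinning and 1025, 586 and 762 RPKM at 50% thinning. The difference was -4.40 ± 0.34 on the log2 scale (SE, limma, adjusted p = 5.54e-21), with the lowest 50% thinning library far above the highest 75% thinning library. None of the other 159 libraries was as low as the lowest at 75% thinning, and 1 fell at or below the highest.

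A single gene model, VIT_19s0014g02740 on chromosome 19, was chosen for description after its values were seen because it was the most abundant in all 6 libraries. It had 80982, 89714 and 97901 RPKM at 75% thinning, against 166386, 167354 and 163848 RPKM at 50% thinning. These values were 8.83%, 9.41% and 10.2% of the library totals at 75% thinning and 16.7%, 16.8% and 16.5% at 50% thinning. The mean at 75% thinning was 0.540-fold that at 50% thinning, and the difference was -0.89 ± 0.21 on the log2 scale (SE, limma, adjusted p = 0.000724). Quantile normalization sets this difference to 0 by construction, since the gene model ranks first in each library. Because RPKM is relative to the mapped reads, a gene model of this size also moves the values of the others. Rescaling each library to the same total without it left 4331 calls, of which 52.3% were higher, against 60.0% of the 4291.

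Some of the large differences lay side by side in the genome. Runs of at least 3 neighbouring tested gene models that all differed by at least 1 in the same direction numbered 10 among the higher ones, with 34 of the 496 gene models, and 2 among the lower ones, with 7 of the 213. The strongest stretch ran from VIT_13s0019g02740 to VIT_13s0019g02850 on chromosome 13 and included both of the gene models named above for their upward differences. Of its 10 gene models 8 were tested, and 7 of those were called higher, each by at least 1, as were 2.42% of all gene models tested. The median difference of the 8 was 3.26 on the log2 scale. Their RPKM summed to 485, 267 and 365 at 75% thinning, against 19.6, 19.5 and 21.5 at 50% thinning. Over the whole scaffold, of 363 tested gene models 66 (18.2%) were higher and 24 (6.61%) lower, beside 12.6% and 8.39% of all gene models tested. Other runs held 5 gene models from VIT_04s0008g01550 to VIT_04s0008g01590, 4 from VIT_12s0057g00060 to VIT_12s0057g00090 and 3 from VIT_09s0002g00630 to VIT_09s0002g00650, all higher. The lower runs were VIT_01s0011g05110 to VIT_01s0011g05140 with 3 gene models and VIT_08s0058g00400 to VIT_08s0058g00440 with 4. These runs were found after the values were seen. Neighbouring gene models can be near-identical copies that share reads, and the libraries were not strand-specific, so the share of each copy is uncertain. The share called on single chromosomes ranged from 18.4% on chromosome 16 to 23.9% on chromosome 10, and on the unplaced scaffolds it was 16.3%.

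On day -18 the same gene models mostly differed the other way. Of the 496 with large upward differences on day -28, 7 had a positive difference on day -18, the median was -0.84 on the log2 scale, and 362 were called lower at 75% thinning (7.82% of all gene models were). Of the 213 with large downward differences, 196 had a positive difference on day -18, the median was 0.81, and 139 were called higher (8.75% of all gene models were). The 2 dates share no library. The test of the difference itself, day -28 against day -18, called 6510 gene models (31.8%), 3328 positive and 3182 negative.

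This reversal rested on replicates 1 and 2 of 50% thinning on day -18. Without them, with the lone remaining library assumed to vary like those of the other groups, 124 gene models were called between the treatments on day -18, against 3390 with them. The test of day -28 against day -18 then called 1870 gene models, 1436 positive and 434 negative. The median log2(RPKM + 1) of the 496 gene models was 4.07, 4.09 and 4.19 in the 75% thinning libraries of day -28, against 2.44, 2.44 and 2.43 in the 50% thinning libraries. On day -18 it was 2.62, 2.48 and 2.44 at 75% thinning, and 4.11, 4.04 and 2.65 at 50% thinning. For the 213 gene models the medians on day -28 were 2.84, 2.82 and 2.84 at 75% thinning, against 4.37, 4.35 and 4.32 at 50% thinning. On day -18 they were 4.30, 4.10 and 4.36 at 75% thinning, and 2.66, 2.70 and 4.33 at 50% thinning. Replicates 1 and 2 of 50% thinning on day -18 thus had levels like those of 75% thinning on day -28, and replicate 3 had levels like those of 50% thinning on day -28.

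**Figure D3:**
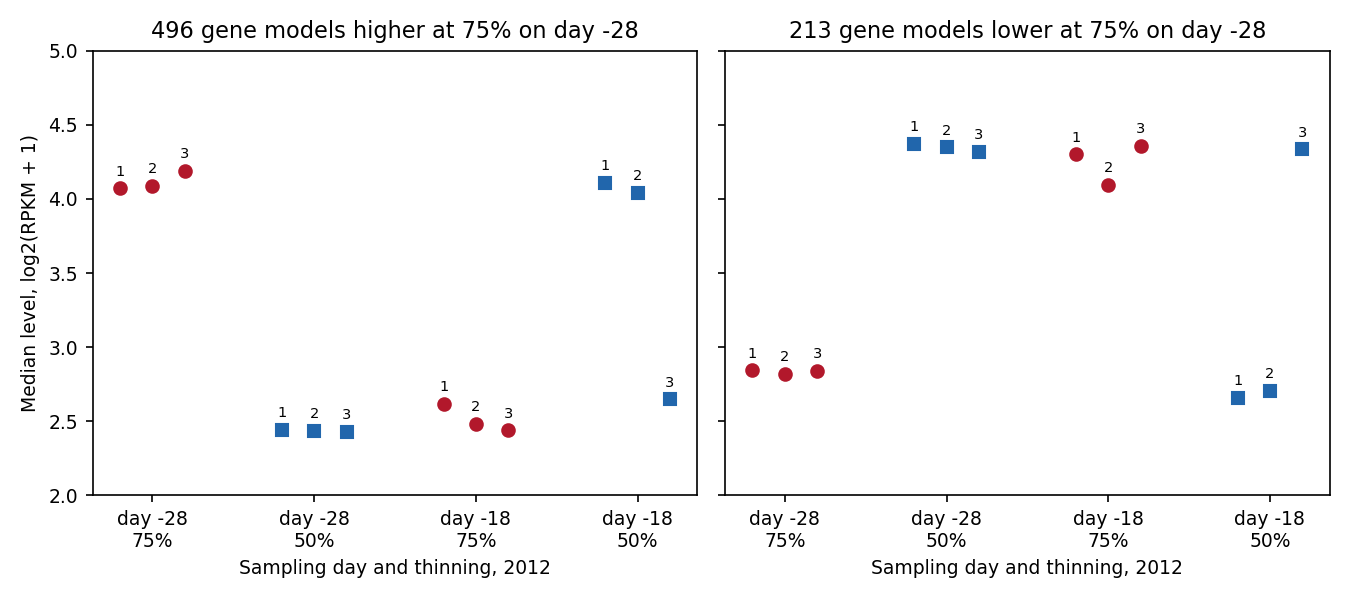
Median log2(RPKM + 1) of the 496 gene models called higher by at least 1 (left) and of the 213 called lower by at least 1 (right) at 75% thinning on day -28, in each library of days -28 and -18 of 2012. Red circles are 75% thinning, blue squares are 50% thinning, and digits are replicate numbers. Replicates 1 and 2 of 50% thinning on day -18 sit at the level of 75% thinning on day -28.

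The named gene models showed this split one by one. VIT_13s0019g02780 had 17.7, 12.7 and 13.9 RPKM at 75% thinning on day -18, against 652, 124 and 20.2 RPKM at 50% thinning. VIT_01s0011g05110 had 3454, 3807 and 5263 RPKM at 75% thinning on day -18, against 87.2, 109 and 3737 RPKM at 50% thinning. The smallest p in the test of day -28 against day -18 belonged to VIT_08s0007g07720 on chromosome 8, chosen for that. On day -28 it had 46.7, 51.6 and 47.8 RPKM at 75% thinning, against 2.33, 2.55 and 2.46 RPKM at 50% thinning, a difference of 3.85 ± 0.25 on the log2 scale (SE, limma, adjusted p = 1.17e-25). On day -18 it had 2.32, 1.41 and 1.51 RPKM at 75% thinning, against 47.6, 54.4 and 2.81 RPKM at 50% thinning. At 75% thinning its mean on day -28 was 48.7 ± 2.60 RPKM (SD, n = 3). Its median over the other 159 libraries was 0 RPKM, and none of them but those 2 libraries of day -18 reached the lowest 75% thinning library of day -28.

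**Figure D4:**
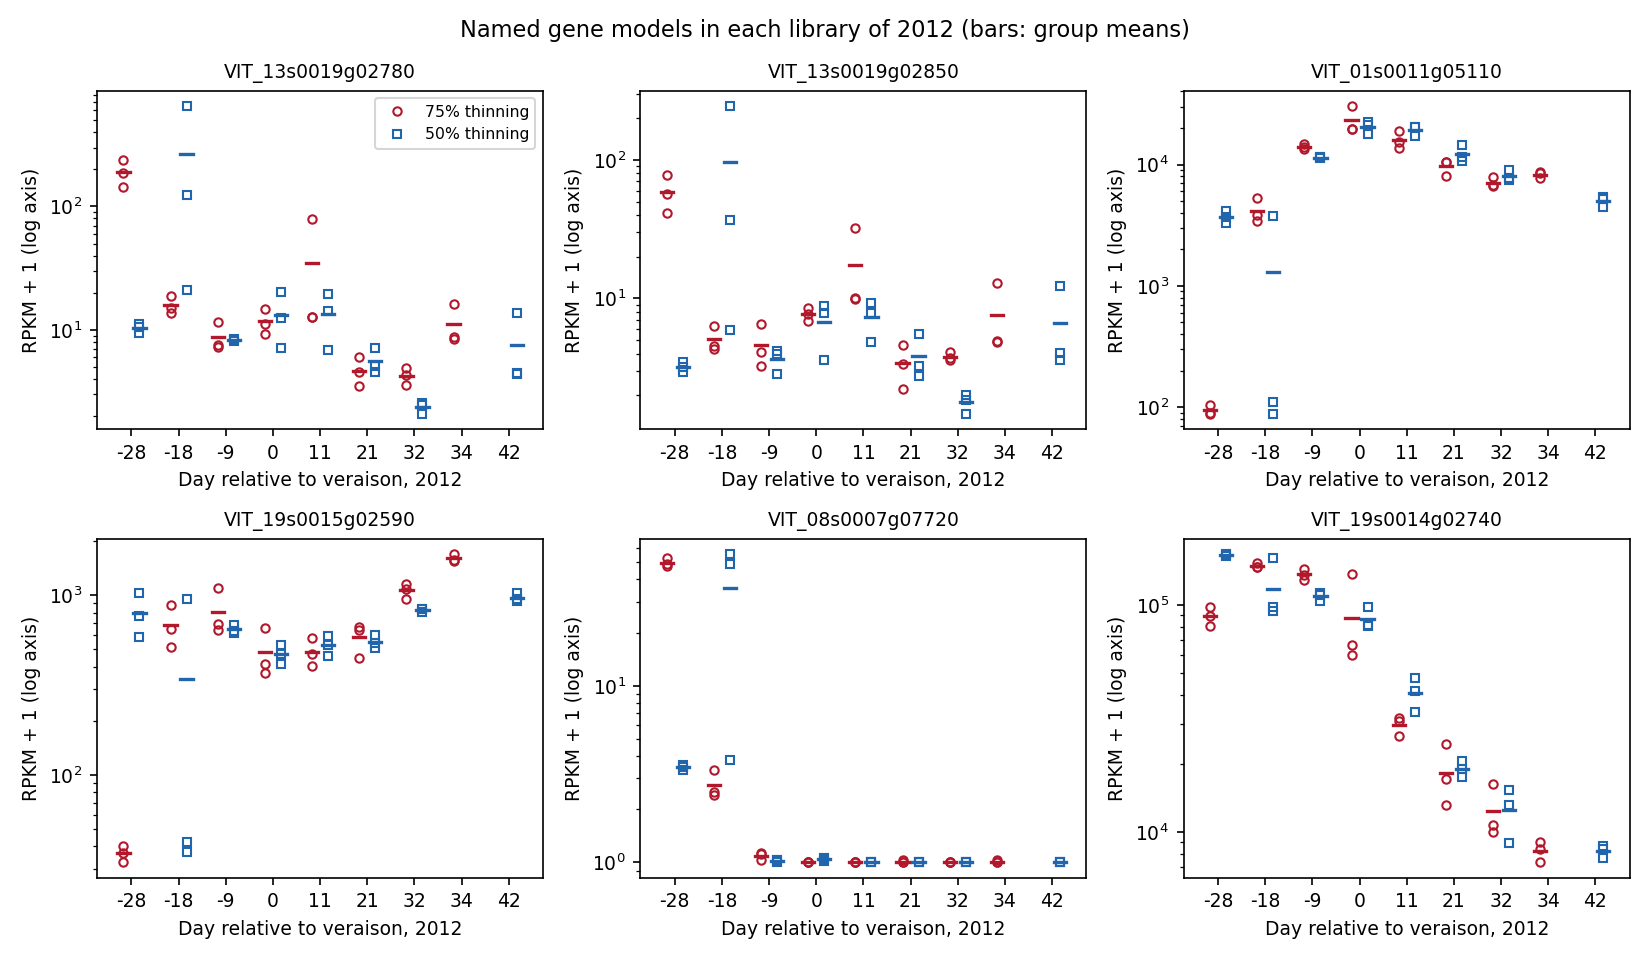
RPKM plus 1 on a log axis of the 6 named gene models in every library of 2012, by day relative to veraison, with 75% thinning as red circles left of 50% thinning as blue squares and group means as bars. On day -18, VIT_01s0011g05110 is at 87.2 and 109 RPKM in replicates 1 and 2 of 50% thinning, close to 75% thinning on day -28, while replicate 1 lies above all 3 of those libraries for VIT_13s0019g02780, at 652 RPKM, and for VIT_13s0019g02850, at 245 RPKM.

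Comparisons across the 2 dates were added after the data were examined. Between 75% thinning on day -18 and 50% thinning on day -28, 152 gene models (0.743%) were called, and 2674 had an unadjusted p under 0.05. The count of 152 was unstable: it ranged from 20 to 702 over the alternatives without a replicate block. Leaving out replicate 2 of 50% thinning on day -28 gave 29, replicate 3 gave 57 and replicate 1 gave 79. Between 50% thinning on day -18 and 75% thinning on day -28, the other pair of unlike labels, 4818 (23.5%) were called, 540 (2.64%) higher and 4278 (20.9%) lower on day -18. These 2 groups thus differed widely, although each library of 75% thinning on day -28 had the other as its nearest group. Of the 496 gene models 193 were lower and 1 higher, and of the 213 54 were higher and none lower. Quantile normalization gave 1317 higher and 1637 lower, and median-of-ratios scaling 1177 higher and 1140 lower. Without replicates 1 and 2 of day -18, 2431 were called, and 2746 without replicate 1 of 75% thinning on day -28. Between day -18 and day -28 at 75% thinning, 5594 (27.3%) were called, 1289 (6.3%) of them higher and 4305 (21%) lower on day -18. The split of these calls depended on the scaling, with 2864 higher and 2686 lower after quantile normalization, and 2255 higher and 2575 lower after median-of-ratios scaling. Between day -18 and day -28 at 50% thinning 6743 (33%) were called, 1597 (7.81%) higher and 5146 (25.2%) lower on day -18. Quantile normalization gave 2690 higher and 3593 lower, and median-of-ratios scaling 3238 higher and 2506 lower. Without replicates 1 and 2 of day -18, 45 were called. Of the 496 gene models with large upward differences on day -28, 474 were lower on day -18 than on day -28 at 75% thinning. At 50% thinning 415 of the 496 were higher on day -18 than on day -28. These comparisons share libraries with the one that chose the 496.

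For part of the gene models, the thinning difference of day -28 differed from that of the rest of the series. The difference on day -28 was tested against the mean difference of the other 25 days sampled at both thinning levels, and 4514 gene models (22.1%) were called, 2780 positive and 1734 negative, or 2607 positive and 3022 negative after quantile normalization. With day -18 left out of the other days the count was 4325. On the 24 days other than -28 and -18 of 2012, the median difference of the 496 gene models lay between -0.05 and 0.12 on the log2 scale, and that of the 213 between -0.21 and 0.09. The most calls on any of these days were on day -14 of 2013, where 10 of the 496 were higher and 18 lower, and 3 of the 213 were higher and 24 lower. On that day 160 of all gene models tested (0.782%) were higher and 351 (1.72%) lower at 75% thinning. The earliest dates of the other seasons leaned the way of day -28 in part. On day -14 of 2013, 292 of the 496 and 48 of the 213 had a positive difference, against 52.1% of all gene models tested. On day -14 of 2014, 371 of the 496 and 76 of the 213 had one, against 51.7% of all.

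**Figure D5:**
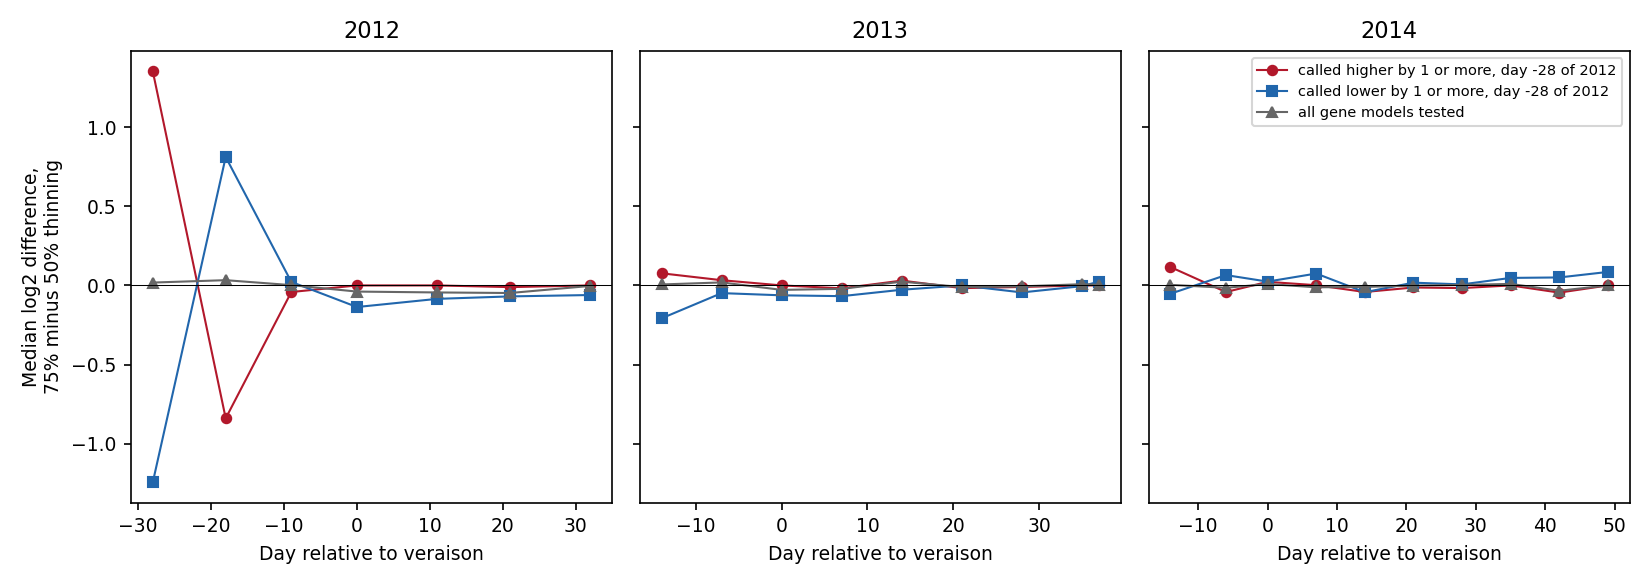
Median difference in log2(RPKM + 1) between 75% and 50% thinning on each of the 26 matched days, for the 496 gene models called higher by at least 1 on day -28 of 2012 (red circles), the 213 called lower (blue squares) and all 20460 tested (grey triangles). Day -28 chose the first 2 sets; on day -18 their medians are -0.84 and 0.81, and on the other 24 days they lie between -0.21 and 0.12.

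The gene models with large differences on day -28 were also often ones that changed between dates before veraison, in libraries outside the day -28 comparison. Those libraries entered the filter and the shared estimate of the spread from which the 496 and 213 were called, so the sets are not wholly independent of them. At 75% thinning in 2012, 242 of the 496 gene models with large upward differences (48.8%) fell between day -18 and day -9 and 54 (10.9%) rose, while 27.4% of all gene models tested fell and 16.9% rose. Of the 213 with large downward differences, 111 (52.1%) rose over those days and 35 (16.4%) fell. The corresponding comparison at 50% thinning in 2012 was not used, since its day -18 libraries stood apart from each other. At 75% thinning in 2013, on day -7 against day -14, 230 of the 496 were lower and 41 higher, beside 23.7% lower and 12.5% higher among all gene models. Of the 213, 110 were higher and 24 lower. At 50% thinning over the same days of 2013, 205 of the 496 were lower and 40 higher, beside 24.9% lower and 11.4% higher among all gene models, and 92 of the 213 were higher and 31 lower. The median changes of the 496 were -0.52 at 75% thinning in 2012, and -0.47 at 75% and -0.41 at 50% thinning in 2013. Those of the 213 were 0.64 in 2012, and 0.54 at 75% and 0.40 at 50% thinning in 2013. In each of these comparisons, every sample of the later date had more sugar in the labels than any sample of the earlier date. Whether the gene models changed with the age of green berries or with the rise in sugar was not tested.

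The 2014 season was compared after the other seasons had been seen. At 75% thinning on day -6 against day -14 of 2014, 118 of the 496 were lower and 35 higher, beside 8.36% lower and 9.03% higher among all gene models, with a median change of -0.22. At 50% thinning 79 of the 496 were lower and 76 higher, beside 6.71% lower and 9.65% higher among all gene models, with a median change of -0.02. As shares of the 496, 23.8% fell and 7.06% rose at 75% thinning, and 15.9% fell and 15.3% rose at 50% thinning. Of the 213 gene models, 116 (54.5%) were higher and none lower at 75% thinning, and 109 (51.2%) were higher and 3 lower at 50% thinning, with median changes of 0.69 and 0.61.

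Over the 2012 season at 75% thinning, the median level of the 496 gene models was 4.11 on day -28, 2.53 on day -18, 2.01 on day -9, 1.52 on day 0 and 0.52 on day 34, taking for each gene model the mean log2(RPKM + 1) of the group. That of the 213 was 2.82 on day -28, 4.20 on day -18, 5.40 on day -9, 5.14 on day 0 and 4.68 on day 34. The 50% thinning libraries of day -28, with medians of 2.42 and 4.29, were thus at the levels that 75% thinning showed on day -18. The values of day -28 itself are those that chose both sets.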

How the data were processed

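RNA was taken from pooled berry pericarp, and non-directional TruSeq libraries were sequenced, per the labels' protocols. The authors deposited RPKM values of 29971 gene models for all 165 libraries. TopHat2 2.0.6 and Cufflinks 2.0.2 appear in the submitters' processing notes, with the genome build and settings not given in the sources used here. This unit holds no read counts, so no count test was run, and the number of reads behind a value is unknown. Reads of near-identical copies, and of a gene and its antisense partner, cannot be told apart.

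Gene models were kept where 3 or more libraries reached an RPKM of 1, which left 20460 for testing on the log2(RPKM + 1) scale. A linear model with limma 3.58.1 (R 4.3.3) gave each of the 55 groups of 3 libraries (season, thinning and time point) its own mean, with a trend, 110 residual and 3.24 prior degrees of freedom. Contrasts were taken from this fit, with Benjamini-Hochberg adjustment over all gene models tested and calls at an adjusted p of 0.05. In simulated data, with low gene models left unchanged, the procedure recovered 50 of 100 changes of 0.5 on the log2 scale. It recovered 90 of 100 changes of 1, and made 18 calls among the unchanged gene models. The false share of its calls was thus above the limit of 0.05 set on the adjusted p. The simulated spread of a gene model was normal and equal in all libraries, unlike that of 50% thinning on day -18. Sugar was compared by an exact permutation test. The labels give each replicate its own sugar value but do not say whether replicates came from separate vines. The p-values therefore measure only the spread between these pooled samples, part of which may be technical. Among the 6 libraries no pair held identical values.

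Named gene models were those with the largest differences in each direction among called ones with a mean of at least 10 RPKM in 1 group and no overlap. The rule took 12 per direction with a gene description and at most 2 per direction without one. None of the identifiers matched the reference gene table, so the second limit applied, and the pathway and marker lists could not be used. Others are said to be chosen after their values were seen. The members, lists and tests were chosen with earlier results of these data known. Alternatives were other pseudocounts (0.1 and 5), filters (none, or 5 RPKM), scalings, library weights, a replicate block, smaller sets of libraries and leaving out replicates. Equal totals without the most abundant gene model, comparisons across the 2 dates, and leaving out replicates 1 and 2 of 50% thinning on day -18 for results other than the test of day -28 against day -18, and the changes between dates before veraison, were added after the data were examined.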

Additional observations from a re-analysis of the deposited data

Results flagged for a closer look

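Results are listed here because the thinning difference on day -28 of 2012 differed from that on other days by a limma test of that difference. Against the mean of the other 25 matched days this held for 4514 gene models, and against day -18 alone for 6510. The difference of day -28 minus that of day -18, on the log2 scale, was 7.11 ± 0.75 (SE) for VIT_13s0019g02780 and 7.08 ± 0.82 for VIT_13s0019g02850. It was -8.93 ± 0.54 for VIT_01s0011g05110 and -6.95 ± 0.48 for VIT_19s0015g02590. These gene models were named for the largest differences on day -28, which enter this contrast, so the estimates may be too large. For VIT_08s0007g07720, chosen for the smallest p in this test, it was 6.85 ± 0.36. For VIT_19s0014g02740, the most abundant gene model, it was -1.28 ± 0.30 (adjusted p = 0.000419), although its difference on day -18 alone, 0.38, was not called (adjusted p = 0.211). All of these values include replicates 1 and 2 of 50% thinning on day -18, which stood apart from replicate 3. Without them the count of 6510 became 1870.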

How the results depend on the processing

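The count of 4291 gene models called on day -28 was 9732 with library weights, 7815 with the 6 libraries alone, 2306 with the 42 libraries of the matched days of 2012 alone, and 709 when a log2 difference of at least 1 was also asked. Leaving out replicates gave 2362 to 3753, the lowest without replicate 2 of both treatments, and 2673 without replicate 3 of both. The count of 4514 against the other 25 days was 9768 with library weights and 2579 to 3962 without replicates, and that of 6510 against day -18 was 1440 with weights, 1870 without replicates 1 and 2 of 50% thinning on day -18, and 4878 to 6302 without replicates of day -28. The weights did not fully converge and gave replicate 2 of 50% thinning on day -18 a weight of 0.000426. The cause of the other shifts was not tested. The 152 calls between 75% thinning on day -18 and 50% thinning on day -28 became 20 and 470 with pseudocounts of 0.1 and 5, 339 and 66 with no filter and one of 5 RPKM, 82 with quantile normalization, 61 with median-of-ratios scaling, 702 with weights, 312 without the 2 libraries of day -18, and 29 to 148 without replicates. The 4818 calls between 50% thinning on day -18 and 75% thinning on day -28 became 2954 with quantile normalization, 2317 with median-of-ratios scaling, 26 with weights, 2431 without those 2 libraries, and 2705 to 4781 without replicates of day -28. The 6743 calls between days -18 and -28 at 50% thinning became 70 with weights and 45 without those 2 libraries (5152 to 6701 without replicates of day -28). The 5594 calls between those days at 75% thinning stayed within 1.5 times that count in the 19 alternatives run. The sugar difference stayed negative, from -0.0717 to -0.0167 g per 100 ml. Quantile normalization turned round which direction held more calls on day -28, against the other 25 days, against day -18 (3379 positive and 4187 negative), between days -18 and -28 at 75% thinning, and among the 152 (51 higher and 31 lower, against 62 and 90). Median-of-ratios scaling did so between days -18 and -28 at 50% thinning, among the 4818 and among the 152 (40 and 21). The near-even split against day -18 also turned round under several other alternatives, among them equal totals (2869 positive and 3928 negative). The low counts without replicates 1 and 2 of day -18 or with weights at 50% thinning, and that of 66 with the stricter filter, also had more higher than lower calls. Of the named gene models, 5 kept their call in all 22 alternatives, and VIT_19s0014g02740 lost it under quantile normalization and, with an adjusted p of 0.0707 in limma, with the 6 libraries alone and a replicate block.

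Replicate numbers did not pair the samples: deviations of equal-numbered libraries from their group means correlated at -0.0244, -0.0353 and -0.0659. With a replicate block within each matched day the counts were 4654 on day -28, 4888 against the other days and 6918 against day -18. With the 6 libraries alone and a block, 6968 were called on day -28. For any comparison across dates, the model with the block compares fitted levels of replicate 1, not group means. Its counts there, 2040 beside 152 and 5927 beside 4818, are therefore not the same comparisons with a block added. For sugar the exact sign-flip test over the 3 pairs gave p = 0.5. The alternatives planned for the pathway lists could not be run, since no gene model had a description. Depth limits gene models with low values, and how far cannot be stated from RPKM alone.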
